A study of Mus musculus with 8 samples.

Results

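The 35 genes described here are imprinted in the mouse, and were followed across bulk RNA sequencing libraries of embryonic brain and spinal cord. They were taken as a list of names, with no cutoff on a measured value, from a deposited table that holds 36317 gene symbols, and they lie in 17 imprinted domains. Of the 35, 19 are known to be expressed from the paternal copy, 11 from the maternal copy, and 5 from a copy that depends on the cell type or transcript. The study removed EED, a protein that PRC2 (Polycomb repressive complex) needs for its activity, with a Cre recombinase driven from Sox1, a gene of early neural precursors. The groups were E15.5 forebrain of EED-cKO embryos, E15.5 forebrain of wild-type (wt) embryos, E13.5 spinal cord of wt embryos and E13.5 forebrain of wt embryos, with 2 libraries each. The labels give no allele beyond EED-cKO and wt, and do not say whether a library came from 1 embryo or a pool. Cells outside the neural lineage, such as vessels and meninges, are not expected to carry the Sox1-Cre deletion. Knockout spinal cord was not analysed here.

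An imprinted gene is expressed mainly from 1 parental copy, because DNA methylation laid down in the egg or sperm marks a control region of its domain. Each domain usually joins protein-coding genes of one parental copy with a noncoding RNA of the other copy, and many of the products regulate fetal growth, placenta, metabolism or the developing brain. PRC2 methylates histone H3 at lysine 27, and in the mouse this mark is found on the silent copy in several imprinted domains. The RPKM values (reads per kilobase of gene, scaled to mapped reads) sum both parental copies, so which copy was expressed was not measured.

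The gene names matched the E15.5 columns only after the names were sorted alphabetically with case and hyphens ignored. In that order wt forebrain at E13.5 and at E15.5 correlated at r = 0.948 across all rows, against 0.760 as deposited. Of the 35 imprinted genes, 12 took another E15.5 row (H19, Peg3, Usp29, Peg10, Ppp1r9a, Asb4, Ndn, Peg12, Slc22a18, Grb10, Nnat and Trappc9) and the other 23 stayed in place. Around each of the 35, the 100 rows on either side correlated between the ages at 0.882 to 0.987, and for all 35 this was higher than with the E15.5 column shifted by up to 3 rows. RPKM summed to 761647 to 843296 in the E15.5 libraries and 378294 to 397320 in the E13.5 libraries, so values of the 2 ages are set side by side and not tested. Read counts are not given, so the depth behind each value is unknown. Nothing says that replicates were separate embryos, so p-values reflect the spread of these libraries alone, which may be technical. With 2 libraries against 2 no exact permutation test can go below p = 0.333, and calls rest on limma, fitted to log2(RPKM + 1) of 17022 genes in all 8 libraries. Calls needed an adjusted p (Benjamini-Hochberg) below 0.05. Changes are log2 differences ± SE on that scale, which understates the fold of genes with low values.

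Eed itself (GRCm38 chr7:89954654-89980983, minus strand) was at 10 and 10.6 RPKM in EED-cKO forebrain, against 25.8 and 27.9 RPKM in wt E15.5 forebrain. It fell by 1.30 ± 0.085 on the log2 scale (limma adjusted p = 8.65e-05). The libraries labelled EED-cKO were thus the lower ones, and which cells gave the reads that remained was not measured. The cortical transcription factor gene Tbr1, a forebrain marker, was at 31.7 and 28.9 RPKM in EED-cKO and 70.6 and 65.3 RPKM in wt E15.5 forebrain. At E13.5, Tbr1 was at 0.1 RPKM in both spinal cord libraries, against 40.4 and 37.4 RPKM in forebrain.

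In EED-cKO forebrain most imprinted genes were more abundant than in wt forebrain. Of the 34 that were tested, 26 rose, 2 fell and 6 were not called. The 26 include Slc22a18 and Kcnq1, which reached 1 RPKM in 2 libraries only with the EED-cKO libraries counted. Over all 17022 tested genes, 30.2% rose, 16.7% fell and 46.9% were called in either direction. Among the 26, 12 rose by at least 1 on the log2 scale, where 6.56% of all tested genes did, and neither of the 2 that fell changed by that much, where 1.14% of all tested genes did. The libraries of the 2 groups did not overlap for 29 imprinted genes that were higher in EED-cKO and 3 that were lower, against 42.6% and 27.6% of all tested genes. The median change of the 34 was 0.71, against 0.08 over all tested genes. After quantile normalization, which moved the median of all genes to −0.05, the median of the imprinted genes was 0.59 and 24 rose. With a library left out in turn, 21 of the 26 kept their call without each of the 8 libraries and 0 of the 2 that fell did. In bulk tissue, fewer cells of a type and less RNA per cell cannot be told apart.

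**Figure D1:**
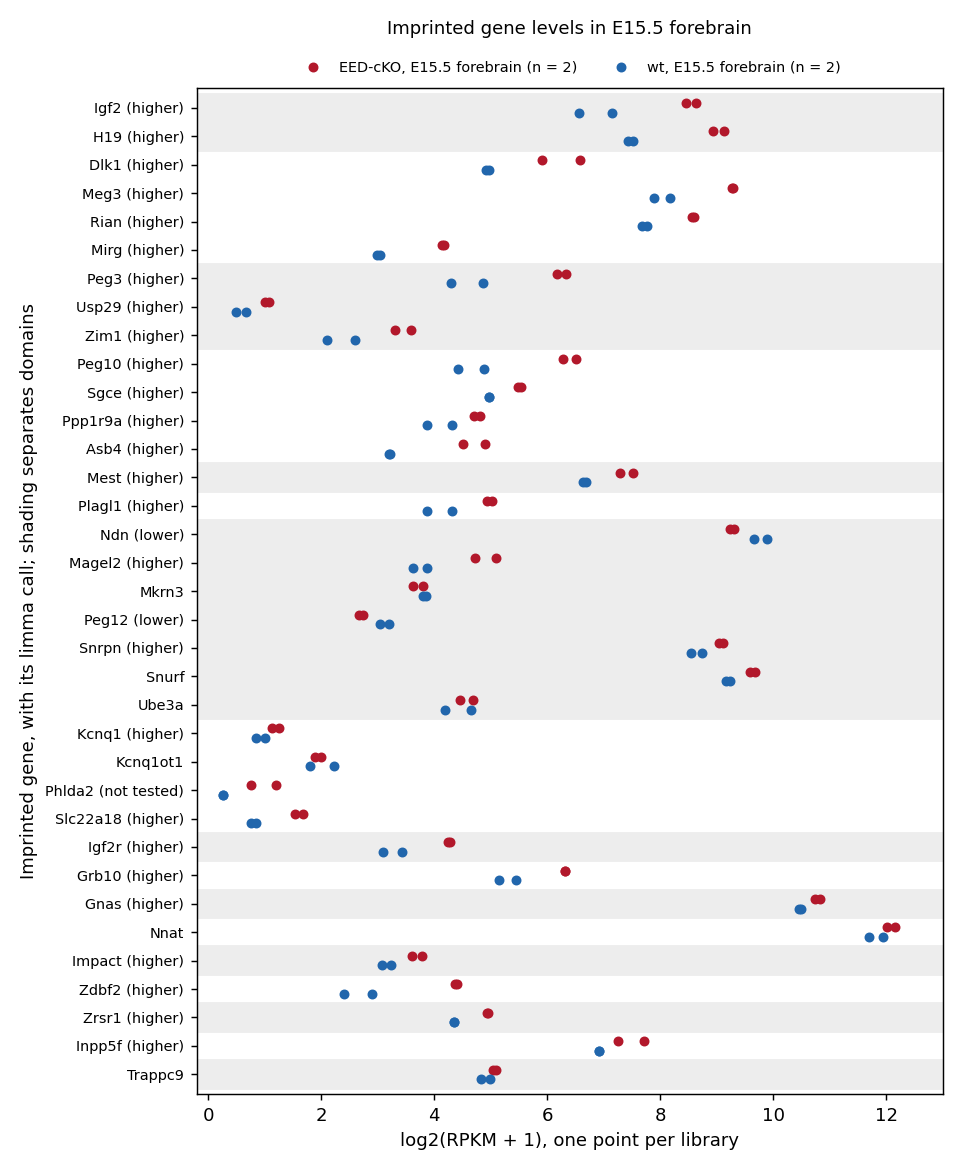
Level of each of the 35 imprinted genes as log2(RPKM + 1) on the horizontal axis, 1 point per library, with the 2 EED-cKO and 2 wt libraries of E15.5 forebrain in separate colours and the limma call beside the name. The 2 EED-cKO points lie to the right of both wt points for 29 of the 34 tested genes, and to the left for Ndn, Mkrn3 and Peg12.

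The imprinted growth pathway joins Igf2, a fetal growth factor, H19, a long noncoding RNA that shares its enhancers, Igf2r, a receptor that carries IGF2 to the lysosome, and Grb10, an adaptor that dampens insulin and IGF receptor signals. Igf2 (GRCm38 chr7:142650766-142666816, minus strand) was at 351.5 and 395.5 RPKM in EED-cKO, against 140.3 and 93.4 RPKM in wt. It rose 3.2-fold in mean RPKM (log2 1.70 ± 0.19, limma adjusted p = 0.000589). Both EED-cKO libraries were far above both wt libraries. H19 (chr7:142575529-142578143, minus strand) was at 487.2 and 561.4 RPKM in EED-cKO, against 182.4 and 171.6 RPKM in wt. It rose 2.96-fold (log2 1.56 ± 0.138, limma adjusted p = 0.00025), so the paternally expressed and the maternally expressed gene of this domain were both higher without overlap. Igf2r was at 18 and 18.5 RPKM in EED-cKO and 9.8 and 7.6 RPKM in wt (log2 0.998 ± 0.115, limma adjusted p = 0.000651). Grb10 was at 78.5 and 79 RPKM in EED-cKO and 42.9 and 34.5 RPKM in wt (log2 1.01 ± 0.107, limma adjusted p = 0.000472). Ligand, receptor and adaptor thus rose together. Plagl1, a zinc finger transcription factor that is known to regulate other imprinted genes, was at 29.5 and 31.7 RPKM in EED-cKO, against 18.9 and 13.7 RPKM in wt (log2 0.89 ± 0.143, limma adjusted p = 0.00256). Each of these 5 calls held without each library. Exons of Igf2 share 62.8% of their bases with the readthrough gene model Gm49394 on the same strand, so reads of the 2 models could be split or shared in the counting.

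All 4 genes of the Dlk1-Meg3 domain on chromosome 12 rose. Dlk1 encodes a membrane protein related to Notch ligands and is expressed from the paternal copy, while Meg3, Rian and Mirg are noncoding RNAs of the maternal copy, of which Rian hosts small nucleolar RNAs and Mirg hosts microRNAs. Dlk1 (GRCm38 chr12:109452823-109463336, plus strand) was at 58.8 and 94.4 RPKM in EED-cKO, against 29.2 and 30.5 RPKM in wt. It rose 2.57-fold (log2 1.29 ± 0.199, limma adjusted p = 0.00208), and EED-cKO replicate 2 stood well above replicate 1. The change was 0.96 without EED-cKO replicate 2 (limma adjusted p = 0.00611). Meg3 (chr12:109541001-109571726, plus strand) was at 622.4 and 621 RPKM in EED-cKO, against 288.5 and 238 RPKM in wt. It rose 2.36-fold (log2 1.24 ± 0.097, limma adjusted p = 0.000165), with 2 EED-cKO libraries that nearly coincided. Rian was at 386.5 and 376.5 RPKM in EED-cKO and 205.3 and 217.7 RPKM in wt (log2 0.85 ± 0.068). Mirg was at 16.6 and 17 RPKM in EED-cKO and 6.9 and 7.2 RPKM in wt (log2 1.15 ± 0.074). Both were higher in EED-cKO without overlap (limma adjusted p = 0.000181 and 8.33e-05). The promoter windows of Dlk1 and Meg3 are shown because these genes of opposite parental copies rose together here and went in opposite directions between tissues. Each window runs 5′ to 3′ from 250 bases before to 50 bases after the start, from RefSeq on GRCm38.p6, with every CpG, the dinucleotide that carries DNA methylation, in capitals. The Dlk1 window (chr12:109452573-109452872, plus strand) holds 9 CpG and the upstream Meg3 window (chr12:109540746-109541045, plus strand) holds 13. A further Meg3 start, not shown, has a window with 1 CpG (chr12:109545148-109545447, plus strand).
Dlk1: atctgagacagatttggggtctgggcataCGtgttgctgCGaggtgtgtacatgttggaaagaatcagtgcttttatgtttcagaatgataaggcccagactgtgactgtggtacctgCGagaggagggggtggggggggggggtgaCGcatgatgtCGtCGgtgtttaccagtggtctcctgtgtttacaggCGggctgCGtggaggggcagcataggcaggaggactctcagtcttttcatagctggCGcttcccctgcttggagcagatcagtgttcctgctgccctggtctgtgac
Meg3: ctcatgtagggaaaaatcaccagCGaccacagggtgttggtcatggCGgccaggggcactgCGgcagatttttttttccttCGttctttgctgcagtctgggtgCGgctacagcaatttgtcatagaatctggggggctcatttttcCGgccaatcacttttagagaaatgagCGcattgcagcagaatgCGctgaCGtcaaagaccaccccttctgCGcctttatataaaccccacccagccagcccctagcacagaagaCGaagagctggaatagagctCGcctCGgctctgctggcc

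The Peg3 domain holds Peg3, a zinc finger gene of the paternal copy with roles in growth and maternal behaviour, Usp29, a paternally expressed member of the ubiquitin protease family that starts next to it in the opposite direction, and Zim1, a maternally expressed zinc finger gene. Peg3 (GRCm38 chr7:6703892-6730431, minus strand) was at 71.4 and 79.4 RPKM in EED-cKO, against 28.1 and 18.7 RPKM in wt. It rose 3.22-fold (log2 1.67 ± 0.165, limma adjusted p = 0.000368), and the lower EED-cKO library was far above the higher wt library. Zim1 was at 8.9 and 11.1 RPKM in EED-cKO, against 5.1 and 3.3 RPKM in wt (log2 1.10 ± 0.19, limma adjusted p = 0.00342). Usp29 was at 1.1 and 1 RPKM in EED-cKO, against 0.6 and 0.4 RPKM in wt (log2 0.45 ± 0.126, limma adjusted p = 0.0228). This low gene was called higher, but the value was 0.06 after quantile normalization (limma adjusted p = 0.694) and 0.96 with a pseudocount of 0.1. The call was also lost without wt replicate 2 (limma adjusted p = 0.103), without EED-cKO replicate 1 (0.109) and without EED-cKO replicate 2 (0.0825). Of Usp29 exon bases 14.3% are shared with Zim3 on the other strand, and the reads were unstranded. Zim3 was at 18.6 and 18.2 RPKM in EED-cKO and 12 and 8.8 RPKM in wt, far above Usp29. The starts of Peg3 and Usp29 are 164 bases apart, and 263 bases of their windows overlap, so 1 stretch of DNA carries both. The Peg3 window (chr7:6730370-6730669, minus strand, RefSeq, GRCm38.p6) holds 13 CpG, in capitals, and is shown as the shared start region of a gene that rose 3.22-fold and of one near 1 RPKM.
Peg3: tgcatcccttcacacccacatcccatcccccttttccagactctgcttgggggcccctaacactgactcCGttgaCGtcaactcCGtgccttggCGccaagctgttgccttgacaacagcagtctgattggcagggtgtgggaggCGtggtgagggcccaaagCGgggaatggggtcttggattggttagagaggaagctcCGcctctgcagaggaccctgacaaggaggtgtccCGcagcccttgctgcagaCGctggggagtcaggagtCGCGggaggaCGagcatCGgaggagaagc

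In the Peg10-Sgce domain on chromosome 6, all 4 genes rose. Peg10, a gene derived from a retrotransposon and needed in the placenta, was at 90.5 and 76.6 RPKM in EED-cKO, against 28.4 and 20.5 RPKM in wt. It rose 3.42-fold (log2 1.75 ± 0.156, limma adjusted p = 0.000257), the largest change on the log2 scale among the 34. Its neighbour Sgce encodes epsilon-sarcoglycan of the muscle and neuronal membrane, starts next to it and is read from the same paternal copy. Sgce was at 45.5 and 43.8 RPKM in EED-cKO, against 30.5 and 30.4 RPKM in wt (log2 0.54 ± 0.06, limma adjusted p = 0.000579). The other genes of the domain, Asb4 and Ppp1r9a, are known as maternally expressed in part of the tissues. Asb4, which encodes a substrate receptor of a ubiquitin ligase, was at 29 and 21.8 RPKM in EED-cKO, against 8.3 and 8.2 RPKM in wt. It rose 3.08-fold (log2 1.499 ± 0.147, limma adjusted p = 0.000358). Both EED-cKO libraries were above both wt libraries. Ppp1r9a, which encodes the actin-binding protein neurabin, was at 27.2 and 25 RPKM in EED-cKO, against 18.9 and 13.6 RPKM in wt (log2 0.67 ± 0.141, limma adjusted p = 0.00786). Its change was 0.44 without wt replicate 2, and its call was lost without EED-cKO replicate 1 (limma adjusted p = 0.0652). Mest, a paternally expressed gene of a predicted hydrolase on the same chromosome, was at 156.5 and 183.4 RPKM in EED-cKO, against 101.8 and 98.4 RPKM in wt (log2 0.75 ± 0.106, limma adjusted p = 0.00147). Of its exon bases 23.1% are shared with Copg2 on the other strand, and the reads were unstranded. Copg2, a coat protein gene, was at 34.1 and 34 RPKM in EED-cKO and 34.7 and 35.1 RPKM in wt (limma adjusted p = 0.721) and was not called. The Asb4 window (chr6:5383136-5383435, plus strand, RefSeq, GRCm38.p6) is shown as that of a called gene whose 6 CpG, in capitals, lie near the median of 7 over all windows. A further Asb4 start, not shown, has a window with 8 CpG.
Asb4: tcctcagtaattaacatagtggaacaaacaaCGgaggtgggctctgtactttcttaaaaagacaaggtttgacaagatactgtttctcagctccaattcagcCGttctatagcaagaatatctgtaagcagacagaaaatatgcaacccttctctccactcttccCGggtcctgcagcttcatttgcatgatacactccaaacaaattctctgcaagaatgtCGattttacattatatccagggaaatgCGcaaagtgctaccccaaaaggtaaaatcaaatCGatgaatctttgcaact

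The Snrpn-Ube3a domain on chromosome 7, the mouse counterpart of the Prader-Willi and Angelman region, was mixed. Of its 7 genes, 2 rose, 2 fell and 3 were not called, with a median change of 0.15. Ndn, a MAGE family gene of postmitotic neurons, was at 634.7 and 599.3 RPKM in EED-cKO, against 809.7 and 952.1 RPKM in wt. It fell (log2 −0.51 ± 0.096, limma adjusted p = 0.00498), with both EED-cKO libraries under both wt libraries. The change was −0.26 after quantile normalization, and the call was lost without EED-cKO replicate 2 (−0.47, limma adjusted p = 0.0511). Peg12, a GSK3-binding protein gene of the Frat family, was at 5.7 and 5.4 RPKM in EED-cKO, against 7.2 and 8.2 RPKM in wt (log2 −0.41 ± 0.094, limma adjusted p = 0.0112). It fell, by −0.73 after quantile normalization, and its call was lost without EED-cKO replicate 2 (−0.37, limma adjusted p = 0.074). Magel2, the MAGE gene next to Ndn, went the other way, at 33.3 and 25.4 RPKM in EED-cKO, against 13.7 and 11.4 RPKM in wt. It rose 2.34-fold (log2 1.16 ± 0.139, limma adjusted p = 0.000768), a call that held without each library. Snrpn, which encodes the spliceosomal protein SmN of neurons, was at 555.9 and 529.8 RPKM in EED-cKO, against 372.6 and 426 RPKM in wt (log2 0.45 ± 0.084, limma adjusted p = 0.00486). It rose, and lost its call when only the 4 compared libraries were fitted (limma adjusted p = 0.0525). Snurf, the upstream reading frame of the same transcript, was at 821.2 and 768.8 RPKM in EED-cKO and 573.4 and 601.5 RPKM in wt (log2 0.44 ± 0.275, limma adjusted p = 0.234). It did not pass, although the groups did not overlap, with an SE that takes in the E13.5 spinal cord libraries at 6 and 13 RPKM, and it was called without either of those libraries (limma adjusted p = 0.00818 and 0.00809). All exon bases of Snurf (100%) lie in Snrpn, so the split of reads between the 2 names is uncertain. Mkrn3, a ring finger gene that restrains puberty, was at 12.9 and 11.4 RPKM in EED-cKO and 13 and 13.5 RPKM in wt (log2 −0.12, limma adjusted p = 0.297), and was called lower after quantile normalization (−0.31, limma adjusted p = 0.0394). Ube3a, a ubiquitin ligase gene expressed from the maternal copy in neurons, overlapped between groups, at 24.8 and 21.1 RPKM in EED-cKO and 24.2 and 17.4 RPKM in wt (log2 0.15, limma adjusted p = 0.443).

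The 4 members of the Kcnq1ot1 domain were low in forebrain. Slc22a18, an organic cation transporter gene, was at 1.9 and 2.2 RPKM in EED-cKO, against 0.7 and 0.8 RPKM in wt (log2 0.80 ± 0.088, limma adjusted p = 0.000556). It rose, but it passed the filter of 1 RPKM in 2 libraries through the EED-cKO libraries alone, and its change was 0.51 after quantile normalization and 1.34 with a pseudocount of 0.1. Phlda2, which limits growth of the placenta, was at 0.7 and 1.3 RPKM in EED-cKO and 0.2 RPKM in both wt libraries. It was not tested under that filter and was called higher where no filter was set. Kcnq1, a potassium channel gene, was at 1.4 and 1.2 RPKM in EED-cKO, against 1 and 0.8 RPKM in wt. It rose (log2 0.28 ± 0.091, limma adjusted p = 0.0427), but it would not have met that filter without the EED-cKO libraries. Its call was lost without 7 of the 8 libraries (limma adjusted p up to 0.137), and its direction turned after quantile normalization (−0.04). Kcnq1ot1, the noncoding RNA that silences this domain in cis, was at 2.7 and 3 RPKM in EED-cKO, between the wt values of 2.5 and 3.7 RPKM (log2 −0.08, limma adjusted p = 0.695). Only 3.0% of Kcnq1 exon bases overlap Kcnq1ot1, although the RNA runs within the Kcnq1 gene on the other strand.

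Of the 7 genes that stand alone in their domain on the list and are not yet described, 5 rose. Zdbf2, a paternally expressed zinc finger gene of hypothalamic feeding circuits, was at 20.2 and 19.7 RPKM in EED-cKO, against 6.5 and 4.3 RPKM in wt. It rose 3.69-fold (log2 1.73 ± 0.161, limma adjusted p = 0.000297), the highest ratio of mean RPKM among the genes given by fold here. Zrsr1, a splicing factor retrogene that lies within Commd1 on the other strand, was at 30.1 and 29.7 RPKM in EED-cKO, against 19.4 and 19.4 RPKM in wt (log2 0.60 ± 0.067, limma adjusted p = 0.000586). Of its exon bases 9.2% are shared with Commd1, and the reads were unstranded. The host gene Commd1 was at 66.4 and 62.1 RPKM in EED-cKO and 66.8 and 85.3 RPKM in wt (log2 −0.23, limma adjusted p = 0.191) and was not called. Impact, a regulator of translation in neurons, was at 11.2 and 12.8 RPKM in EED-cKO and 8.4 and 7.4 RPKM in wt (log2 0.55 ± 0.101, limma adjusted p = 0.0046), with 0.31 after quantile normalization, and lost its call when only the 4 compared libraries were fitted (0.0507). Gnas, the stimulatory G protein alpha subunit locus, was at 1719.1 and 1824 RPKM in EED-cKO, against 1414.8 and 1433.8 RPKM in wt (log2 0.31 ± 0.073, limma adjusted p = 0.0115). Its change was 0.56 after quantile normalization, and its call was lost without EED-cKO replicate 2 (limma adjusted p = 0.0842) and under median ratio scaling (0.0951). Inpp5f, a phosphoinositide phosphatase gene, was at 208.3 and 151.5 RPKM in EED-cKO, against 119.7 and 119.4 RPKM in wt (log2 0.57 ± 0.175, limma adjusted p = 0.0333). Its call was lost without EED-cKO replicate 1 (log2 0.34, limma adjusted p = 0.193) and without either wt library (0.109 and 0.129). Nnat, a neuronal endoplasmic reticulum protein gene and the most abundant of the 35, was at 4551.6 and 4125.8 RPKM in EED-cKO and 3318.8 and 3952.8 RPKM in wt (log2 0.26, limma adjusted p = 0.104), and was called without wt replicate 2 (0.0144). Trappc9, a subunit of a trafficking complex, was at 33 and 32.1 RPKM in EED-cKO and 30.9 and 27.6 RPKM in wt (log2 0.15, limma adjusted p = 0.149), and was called without wt replicate 1 (0.0328). RefSeq gives Zdbf2 a pair of starts far apart, and both windows are shown because the table holds 1 value for the gene and cannot tell them apart. The upstream window (chr1:63200108-63200407) holds 15 CpG and the downstream window (chr1:63273019-63273318) holds 38, both on the plus strand of GRCm38.p6, with CpG in capitals.
Zdbf2 upstream: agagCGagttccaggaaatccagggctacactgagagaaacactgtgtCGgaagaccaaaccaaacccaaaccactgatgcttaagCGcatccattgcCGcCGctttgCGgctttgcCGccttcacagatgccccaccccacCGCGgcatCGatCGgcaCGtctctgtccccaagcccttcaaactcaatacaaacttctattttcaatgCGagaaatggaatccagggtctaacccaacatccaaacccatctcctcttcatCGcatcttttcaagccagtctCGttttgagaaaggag
Zdbf2 downstream: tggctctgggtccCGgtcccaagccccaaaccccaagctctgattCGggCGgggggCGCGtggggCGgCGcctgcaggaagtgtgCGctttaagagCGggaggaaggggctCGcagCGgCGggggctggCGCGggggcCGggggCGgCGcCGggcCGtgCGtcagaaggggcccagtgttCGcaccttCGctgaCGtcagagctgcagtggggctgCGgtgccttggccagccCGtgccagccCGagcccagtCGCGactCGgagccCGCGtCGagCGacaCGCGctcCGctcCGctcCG

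Genes were grouped by the copy known to be expressed, which was not measured in these libraries. All 10 tested genes of the maternal copy rose in EED-cKO forebrain, where 30.2% of all tested genes rose. Their changes were 0.28 to 1.56, with a median of 1.05. Of these 10, Asb4 and Ppp1r9a are known as maternally expressed in only part of the tissues. The 10 include Slc22a18, which passed the filter through EED-cKO alone, and Kcnq1, which would not have passed it without the EED-cKO libraries. The call of Kcnq1 was lost without 7 of the 8 libraries, and its direction turned after quantile normalization (−0.04). Among the 19 genes of the paternal copy, 13 rose, 2 fell and 4 were not called, with changes of −0.51 to 1.74 and a median of 0.55. The 5 genes whose copy depends on cell type or transcript included 3 that rose and 2 that were not called, with a median of 0.31. Whether the 2 parental classes differed was not tested, since genes of 1 domain share control regions and are not independent. Within domains, the genes of opposite copies rose side by side at Igf2 and H19, at Dlk1 and Meg3, at Peg3 and Zim1, and at Peg10 and Asb4. They did not in the Kcnq1ot1 domain, where the paternal Kcnq1ot1 was not called (log2 −0.08) and the maternal Slc22a18 and Kcnq1 rose. In the Snrpn-Ube3a domain paternal genes went both ways and Ube3a was not called.

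Markers of other cell types moved in the same comparison, and their part in the changes of imprinted genes was not tested. All 12 meningeal and mesenchymal markers rose, with a summed level of 745 and 932.3 RPKM in EED-cKO, against 250.3 and 184.3 RPKM in wt. All 8 tested choroid plexus markers rose, with sums of 5836.4 and 4570.9 RPKM in EED-cKO, against 2137.4 and 2290.8 RPKM in wt. All 7 markers of cortical glutamatergic neurons fell, with sums of 95.8 and 90.3 RPKM in EED-cKO, against 794.6 and 818.3 RPKM in wt. Marker levels of mesenchyme and choroid plexus were thus higher and those of cortical neurons lower, and a change in cell number was not told apart from a change of these genes within cells. Endothelial markers rose for 8 of 8 genes (283.1 and 293.2 RPKM in EED-cKO, against 201 and 192.8 RPKM in wt), pericyte markers for 6 of 7 and microglial markers for 5 of 8. Among 8 general neuronal markers 3 rose and 2 fell. Their sums were 3561.4 and 3412 RPKM in EED-cKO and 4299 and 4441.8 RPKM in wt. Neural progenitor markers rose for 2 of 8 and fell for 3. They summed to 1932.9 and 1964.3 RPKM in EED-cKO and 1768.9 and 1867.1 RPKM in wt. Markers of sensory ganglia and Schwann cells rose for 2 of 7 and fell for 1. Of 9 tested markers of hypothalamus and diencephalon, where several imprinted genes are abundant, 5 rose and 2 fell, with sums of 155.7 and 229.3 RPKM in EED-cKO and 96.1 and 101.9 RPKM in wt. Pomc, the hormone precursor gene of arcuate neurons and pituitary, was at 9 and 103.6 RPKM in EED-cKO and 5.6 and 7.4 RPKM in wt (limma adjusted p = 0.097), so the higher sum of EED-cKO replicate 2 rests on a gene that was not called and was named after its values were seen. EED-cKO replicate 2 also stood apart in skeletal muscle markers, of which 3 of 8 were tested and none called, with 7.7 and 140 RPKM in EED-cKO replicates 1 and 2, against 6.5 and 8.2 RPKM in wt. Dlk1 was at 58.8 and 94.4 RPKM in EED-cKO replicates 1 and 2, and a link to muscle or mesenchymal markers was not tested. Of 7 erythroid markers 1 fell and 6 were not called, at sums of 11522.8 and 12977.2 RPKM in EED-cKO and 8270.7 and 11075.2 RPKM in wt. The gene that fell was Hbb-bt, at 5.9 and 8.1 RPKM in EED-cKO, against 395.4 and 547.4 RPKM in wt (log2 −5.88 ± 0.208, limma adjusted p = 8.44e-06). Hbb-bs was at 5109.1 and 5902.3 RPKM in EED-cKO and 3159.1 and 4340.1 RPKM in wt (limma adjusted p = 0.0556). Why Hbb-bt alone fell was not tested. No listed marker was at 0 in all 4 of these libraries.

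**Figure D2:**
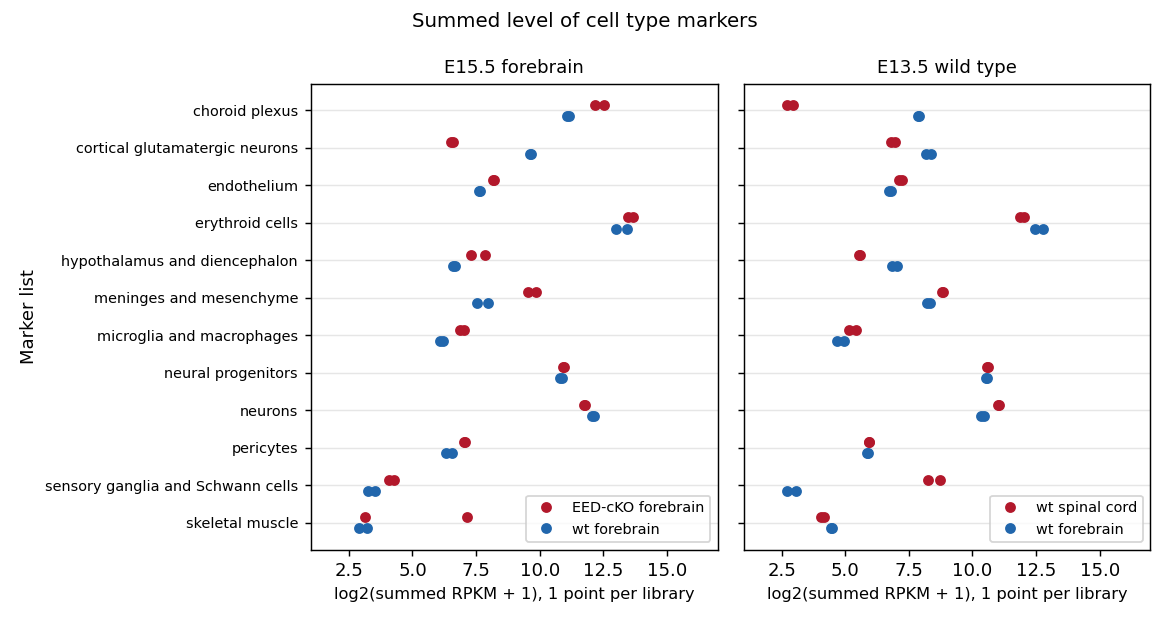
Summed level of each cell type marker list as log2(summed RPKM + 1) on the horizontal axis, 1 point per library, for E15.5 forebrain (left, EED-cKO and wt) and E13.5 wt tissue (right, spinal cord and forebrain). In E15.5 forebrain the EED-cKO points are right of both wt points for mesenchyme and choroid plexus and left of them for cortical glutamatergic neurons.

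Between tissues at E13.5, imprinted genes differed in both directions, as did all tested genes. Of the 34 tested, 9 (26.5%) were higher in wt spinal cord than in wt forebrain, 12 (35.3%) were lower and 13 were not called. Called in either direction were 61.8% of the 34. Over all tested genes 21.8% were higher in spinal cord, 23.9% were lower and 45.7% were called in either direction. The median change of the imprinted genes was 0.06, against 0 over all tested genes. Only Meg3 was higher by at least 1 on the log2 scale, while Peg10, Asb4, Magel2 and Peg12 were lower by at least 1, which compares with 5.31% and 4.39% of all tested genes. Groups did not overlap for 13 imprinted genes (38.2%) that were higher in spinal cord, near the 37.0% of all tested genes. They did not overlap for 14 (41.2%) that were lower, near the 39.3% of all tested genes. Among the called genes, 5 of the 9 higher and 10 of the 12 lower ones kept their call without each library.

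The maternal noncoding RNAs of the Dlk1-Meg3 domain stood higher in spinal cord. Meg3 was at 569.7 and 534.4 RPKM in spinal cord, against 221 and 226.7 RPKM in forebrain (log2 1.30 ± 0.097, limma adjusted p = 6.72e-05). Rian was at 199.4 and 199.9 RPKM in spinal cord, against 100.1 and 110.1 RPKM in forebrain (log2 0.92 ± 0.068, limma adjusted p = 6.44e-05). Mirg was at 15.2 and 16.5 RPKM in spinal cord, against 8.6 and 9 RPKM in forebrain (log2 0.78 ± 0.074, limma adjusted p = 0.000199). In all 3 the spinal cord libraries were above both forebrain libraries. Dlk1, the paternal gene of the domain, was lower, at 26.4 and 25.9 RPKM in spinal cord, against 43.8 and 52.2 RPKM in forebrain (log2 −0.85 ± 0.199, limma adjusted p = 0.0116). Its call was lost without forebrain replicate 2 (limma adjusted p = 0.0865) and without spinal cord replicate 1 (0.064) or 2 (0.0673).

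Igf2 and H19 were both called higher in spinal cord, though neither call was stable. Igf2 was at 149.9 and 120.4 RPKM in spinal cord, against 89.1 and 93.3 RPKM in forebrain (log2 0.55 ± 0.19, limma adjusted p = 0.0489), and lost its call without 6 of the 8 libraries (up to 0.255). H19 was at 330.6 and 248 RPKM in spinal cord, against 218.3 and 208.6 RPKM in forebrain (log2 0.42 ± 0.138, limma adjusted p = 0.0411), and lost its call without 7 of the 8, with a change of 0.22 without spinal cord replicate 1 (0.208). The groups did not overlap for either gene. Grb10 was lower, at 86 and 83.3 RPKM in spinal cord, against 153.1 and 173.3 RPKM in forebrain (log2 −0.94 ± 0.107, limma adjusted p = 0.000462). Plagl1 was lower as well, at 23.2 and 21.4 RPKM in spinal cord, against 42.1 and 48 RPKM in forebrain (log2 −0.98 ± 0.143, limma adjusted p = 0.00138). Igf2r was at 14.5 and 13 RPKM in spinal cord and 14.9 and 15.4 RPKM in forebrain (log2 −0.13, limma adjusted p = 0.39). The growth pathway therefore held genes of both directions between the tissues.

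**Figure D3:**
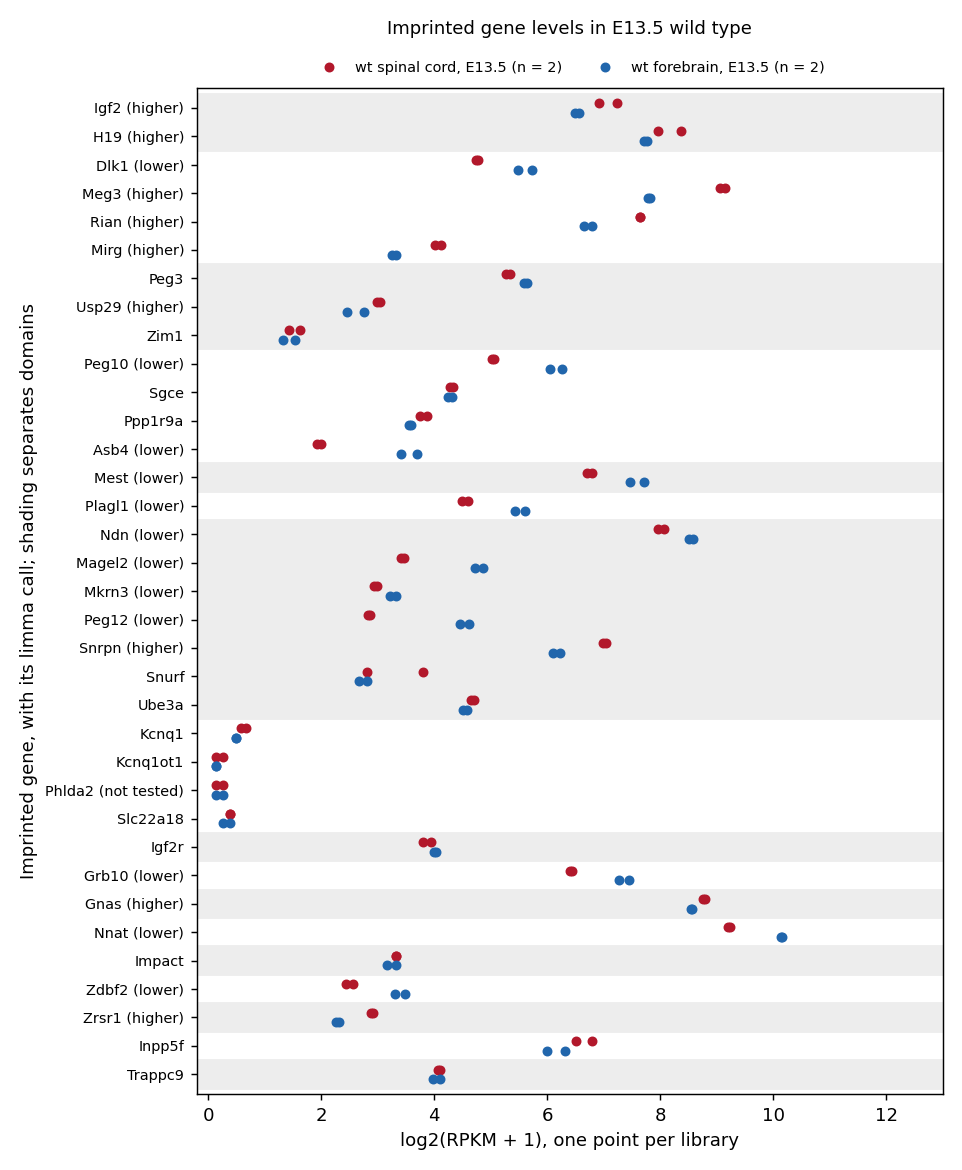
Level of each of the 35 imprinted genes as log2(RPKM + 1) on the horizontal axis, 1 point per library, with the 2 spinal cord and 2 forebrain libraries of E13.5 wt embryos in separate colours and the limma call beside the name. The 2 spinal cord points lie right of both forebrain points for 13 of the 34 tested genes and left of them for 14.

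On chromosome 6, Asb4 was at 3 and 2.8 RPKM in spinal cord, against 9.7 and 12 RPKM in forebrain (log2 −1.60 ± 0.147, limma adjusted p = 0.000176). Peg10 was at 31.6 and 32.3 RPKM in spinal cord, against 65.2 and 75.8 RPKM in forebrain (log2 −1.11 ± 0.156, limma adjusted p = 0.00116). Mest was at 110.2 and 103.1 RPKM in spinal cord, against 177.1 and 210.1 RPKM in forebrain (log2 −0.85 ± 0.106, limma adjusted p = 0.000695). All 3 were lower in spinal cord in both libraries. Their neighbours Sgce, at 18.5 and 19.1 RPKM in spinal cord and 17.9 and 18.9 RPKM in forebrain, and Ppp1r9a, at 12.5 and 13.7 RPKM in spinal cord and 11.1 and 10.7 RPKM in forebrain, were not called (limma adjusted p = 0.728 and 0.203). Ppp1r9a was called higher without wt E15.5 forebrain replicate 1 (limma adjusted p = 0.0325) or 2 (0.0321).

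In the Snrpn-Ube3a domain, 4 genes were lower in spinal cord and Snrpn was higher. Peg12 was at 6.1 and 6.3 RPKM in spinal cord, against 21.1 and 23.7 RPKM in forebrain (log2 −1.70 ± 0.094, limma adjusted p = 2.01e-05). Magel2 was at 9.7 and 10.1 RPKM in spinal cord, against 28.1 and 25.5 RPKM in forebrain (log2 −1.35 ± 0.139, limma adjusted p = 0.000286). Ndn was at 267.9 and 247.6 RPKM in spinal cord, against 384.4 and 366.3 RPKM in forebrain (log2 −0.54 ± 0.096, limma adjusted p = 0.00353). These MAGE and Frat family genes were under the forebrain values in both spinal cord libraries. Mkrn3 was lower at 6.7 and 6.9 RPKM in spinal cord, against 8.3 and 9 RPKM in forebrain (log2 −0.31 ± 0.086, limma adjusted p = 0.0236), and lost its call without forebrain replicate 2 (0.13) and without spinal cord replicate 1 (0.113) or 2 (0.081). Snrpn was at 130.7 and 126.6 RPKM in spinal cord, against 73.9 and 67.7 RPKM in forebrain (log2 0.85 ± 0.084, limma adjusted p = 0.000231). Its direction was opposite to that of the 4 genes named before it. Snurf was at 6 and 13 RPKM in spinal cord and 6 and 5.4 RPKM in forebrain and was not called (limma adjusted p = 0.137), except without spinal cord replicate 1 (log2 1.07, limma adjusted p = 0.00114). Ube3a was at 25 and 24.3 RPKM in spinal cord and 21.7 and 23 RPKM in forebrain (limma adjusted p = 0.497).

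Among the other members, Nnat was at 587.1 and 602.9 RPKM in spinal cord, against 1128.1 and 1145 RPKM in forebrain (log2 −0.93 ± 0.114, limma adjusted p = 0.000637). Zdbf2 was at 4.4 and 4.9 RPKM in spinal cord, against 8.9 and 10.2 RPKM in forebrain (log2 −0.90 ± 0.161, limma adjusted p = 0.00365). Zrsr1 was at 6.4 and 6.6 RPKM in spinal cord, against 4 and 3.8 RPKM in forebrain (log2 0.61 ± 0.067, limma adjusted p = 0.000373). Nnat and Zdbf2 were thus lower and Zrsr1 higher in spinal cord, each without overlap. Gnas was at 444.3 and 431.1 RPKM in spinal cord, against 374.3 and 378.4 RPKM in forebrain (log2 0.22 ± 0.073, limma adjusted p = 0.0457), and lost its call without 6 of the 8 libraries. Usp29 was at 6.9 and 7.2 RPKM in spinal cord, against 5.8 and 4.5 RPKM in forebrain (log2 0.40 ± 0.126, limma adjusted p = 0.0374), and lost its call without 5 of the 8, with a change of 0.24 without forebrain replicate 2 (0.198). Peg3, which shares its start region with Usp29, was at 37.5 and 39.7 RPKM in spinal cord and 47.3 and 49.1 RPKM in forebrain (log2 −0.31, limma adjusted p = 0.166), and was called lower without either wt E15.5 library (0.0119 and 0.0118). Inpp5f was at 110.7 and 90.3 RPKM in spinal cord and 78.9 and 63.1 RPKM in forebrain (log2 0.50, limma adjusted p = 0.0533), and was called without either EED-cKO library (0.0437 and 0.0438). Trappc9, Impact and Zim1 were not called, and Kcnq1, Kcnq1ot1, Phlda2 and Slc22a18 were at 0.6 RPKM or less in every E13.5 library.

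By the copy known to be expressed, 4 of the 10 tested maternal genes were higher in spinal cord. Of the others, 1 was lower and 5 were not called, and the median change of the 10 was 0.20. Of the 19 genes of the paternal copy, 4 were higher, 10 lower and 5 not called, with a median of −0.31. Over all tested genes 21.8% were higher and 23.9% lower. The genes not called include Kcnq1, Slc22a18 and Kcnq1ot1, at 0.6 RPKM or less in every E13.5 library, which passed the filter through E15.5 libraries alone. Cell type markers differed here too, and their part in these values was not tested. All 8 neuronal markers were higher in spinal cord, with sums of 2116.3 and 2066.3 RPKM in spinal cord, against 1416 and 1293.1 RPKM in forebrain. All 7 markers of sensory ganglia and Schwann cells were higher, with 422.3 and 304.5 RPKM in spinal cord, against 7.3 and 5.5 RPKM in forebrain. Markers of neurons and of ganglia were thus higher in spinal cord. Neural progenitor markers were lower for 6 of 8 and higher for 1, although their sum was slightly higher, at 1553.9 and 1539 RPKM in spinal cord, against 1489.1 and 1525.3 RPKM in forebrain. Markers of hypothalamus and diencephalon were lower for 5 of 9 tested and higher for 1. Choroid plexus markers were lower for 6 of 8 tested, at 6.7 and 5.6 RPKM in spinal cord, against 233.3 and 238.7 RPKM in forebrain. Choroid plexus makes cerebrospinal fluid, and its markers were thus low in spinal cord. All 7 markers of cortical glutamatergic neurons were lower, with 111.1 and 122.7 RPKM in spinal cord, against 332.2 and 291.4 RPKM in forebrain. Meningeal and mesenchymal markers were higher for 5 of 12 and lower for 2, with 451.6 and 455.1 RPKM in spinal cord, against 299.7 and 317 RPKM in forebrain. Erythroid markers were lower for 5 of 7, with 4142.2 and 3734.1 RPKM in spinal cord, against 5608.7 and 6958.4 RPKM in forebrain. Mesenchymal sums were thus higher in spinal cord. Spinal cord replicate 1 was the higher of the pair in ganglion markers, H19 and Igf2, but not in the mesenchymal sum. Links between these values were not tested.

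Setting the comparisons side by side, all 9 members that were higher in spinal cord at E13.5 (Igf2, H19, Meg3, Rian, Mirg, Usp29, Snrpn, Gnas and Zrsr1) were among the 26 that rose in EED-cKO forebrain at E15.5. Of all 34 tested members 76.5% rose there, and the share of all tested genes called in both comparisons was not computed. Igf2, H19, Usp29 and Gnas lost their spinal cord calls when some single libraries were left out. Of the 12 that were lower in spinal cord, 8 (Dlk1, Peg10, Asb4, Mest, Plagl1, Magel2, Grb10 and Zdbf2) also rose in EED-cKO forebrain, 2 (Ndn and Peg12) fell and 2 (Mkrn3 and Nnat) were not called. The other 9 that rose in EED-cKO (Peg3, Zim1, Sgce, Ppp1r9a, Kcnq1, Slc22a18, Igf2r, Impact and Inpp5f) were not called between the tissues. Members that rose in EED-cKO forebrain therefore held genes of both tissue directions. The comparisons use different libraries but share 1 estimate of the spread, and the difference between the changes was not tested.

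**Figure D4:**
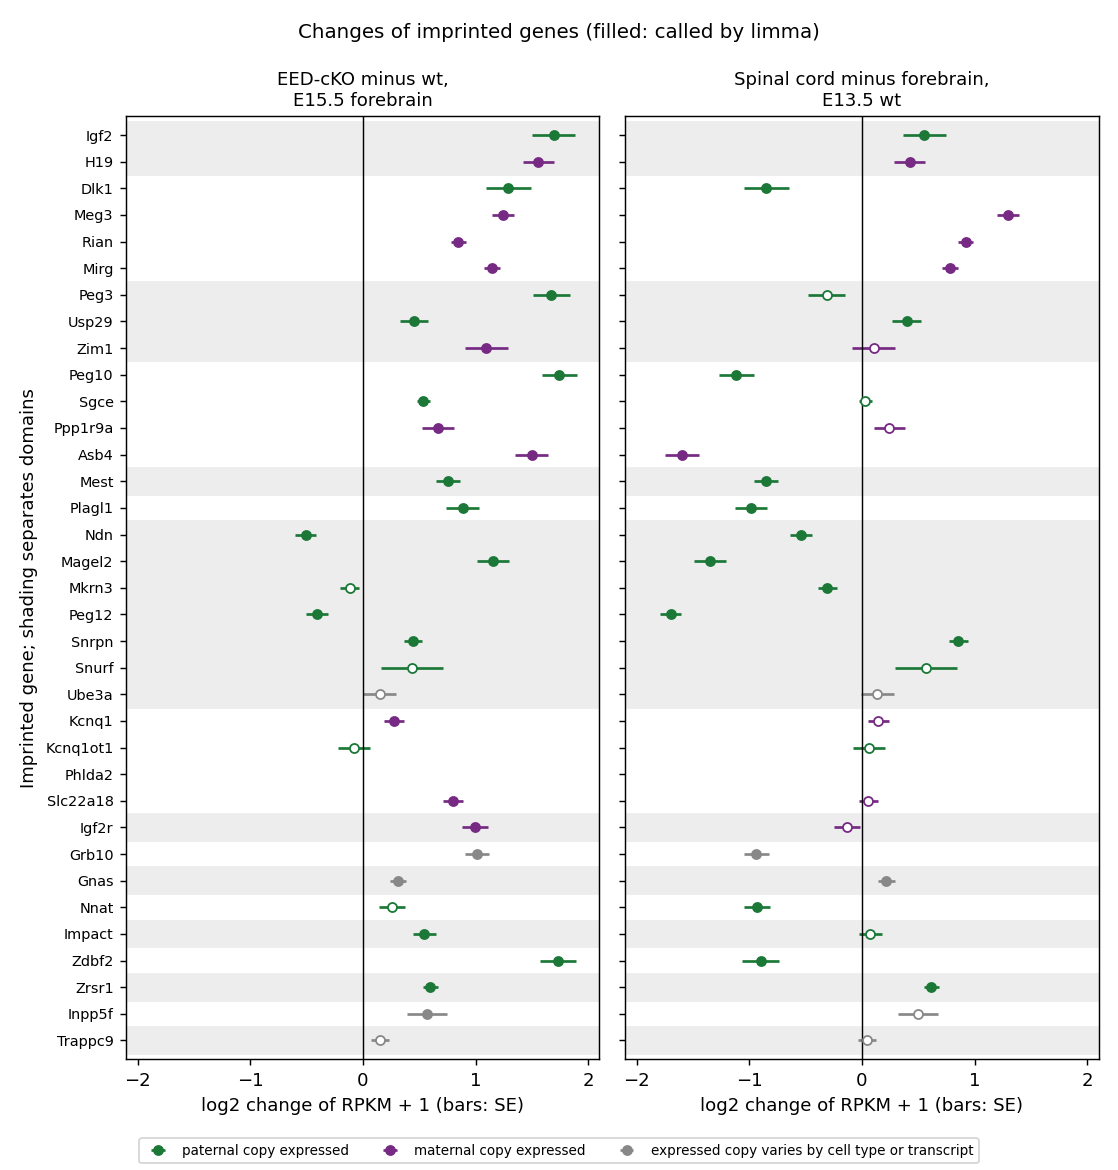
Log2 change of RPKM + 1 with its SE (bars) for each imprinted gene. EED-cKO minus wt in E15.5 forebrain is on the left and spinal cord minus forebrain at E13.5 on the right. Points are coloured by the parental copy known to be expressed and filled where limma called the gene. On the left 26 filled points lie above 0 and 2 below, and on the right 9 lie above 0 and 12 below.

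The members covered a wide range of levels. In wt E15.5 forebrain, 11 of the 35 averaged at least 100 RPKM, 12 from 10 to 100, 8 from 1 to 10 and 4 under 1. In wt E13.5 forebrain the numbers were 8, 15, 8 and 4. A few members lay far apart between the ages, which were not tested against each other. Snurf was at 5.4 to 13 RPKM in the 4 E13.5 libraries and 573.4 to 821.2 RPKM in the 4 E15.5 libraries. Kcnq1ot1 was at 0.1 to 0.2 RPKM at E13.5 and 2.5 to 3.7 RPKM at E15.5, while Usp29 was at 4.5 to 7.2 RPKM at E13.5 and 0.4 to 1.1 RPKM at E15.5. Either mm9 or GRCm38 could have served each library, since the labels name both builds, and a part of the annotation in these values was not tested.

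Promoter windows from RefSeq were found for 29 of the 35 members, with 45 windows in all, since several genes have more than 1 start. H19, Sgce, Peg10, Impact, Kcnq1 and Trappc9 had no entry. The member windows held 0 to 48 CpG, with a median of 13, against a median of 7 over all 32851 windows of 27025 genes. At least 20 CpG were held by 26.7% of member windows and 26.5% of all windows. The letters TGCCGC, searched on both strands and known as the methylated hexamer bound by ZFP57, a protein that protects imprints, were in 11 of the 45 windows (24.4%), against 11.6% of all windows of the same length. The upstream Zdbf2 window printed above held 3 matches and the printed Meg3 window 1, while the printed Peg3, Dlk1, Asb4 and downstream Zdbf2 windows held none. Some member windows overlap each other or repeat a start, as at Peg3 and Usp29 or at Snrpn and Snurf, so they are not independent. A match is a description of letters only.

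Of 41 further imprinted genes, 38 were tested in EED-cKO against wt forebrain, and 22 rose, 4 fell and 12 were not called, with a median change of 0.42, where 30.2% of all tested genes rose and 16.7% fell. The largest changes at 2 RPKM or more were in Calcr, the calcitonin receptor gene next to the Peg10-Sgce domain, at 17.8 and 14.3 RPKM in EED-cKO, against 3.5 and 2.8 RPKM in wt (log2 2.04 ± 0.144, limma adjusted p = 0.000111). Kcnk9 (log2 1.73), Rasgrf1 (1.63) and Pon3 (1.62), which encode a potassium channel, an exchange factor of neuronal Ras and a paraoxonase, also rose. Each of these 4 calls held without each library. Cdkn1c, the maternally expressed cyclin-dependent kinase inhibitor of the Kcnq1ot1 domain, was at 293.1 and 287.3 RPKM in EED-cKO, against 148 and 166.4 RPKM in wt (log2 0.88 ± 0.126, limma adjusted p = 0.00154). Airn, the paternal noncoding RNA that overlaps Igf2r on the other strand, was at 4.7 and 6.3 RPKM in EED-cKO, against 2.8 and 2.4 RPKM in wt (log2 0.84 ± 0.136, limma adjusted p = 0.00257). Blcap, whose intron holds Nnat, was at 132.3 and 130.2 RPKM in EED-cKO, against 109.5 and 109.9 RPKM in wt (log2 0.26 ± 0.051, limma adjusted p = 0.00615). In the regional comparison 11 of the 38 were higher in spinal cord and 11 lower, with a median of 0.06, which is near the 21.8% higher and 23.9% lower over all tested genes. There Th, the dopamine synthesis enzyme gene, was at 25.6 and 18.3 RPKM in spinal cord, against 3.9 and 4.3 RPKM in forebrain (log2 2.15 ± 0.166, limma adjusted p = 7.59e-05), and Dio3, which inactivates thyroid hormone in the Dlk1-Meg3 domain, was at 1.2 and 1.6 RPKM in spinal cord, against 4.2 and 4.4 RPKM in forebrain (log2 −1.15 ± 0.142, limma adjusted p = 0.000666).

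Genes beside the imprinted domains that were listed here as neighbours, not as imprinted, went both ways. Whether any of these neighbours is imprinted was not measured. Of 16 such neighbours 15 were tested in EED-cKO against wt forebrain, and 4 rose, 3 fell and 8 were not called. Over all tested genes 30.2% rose and 16.7% fell. The median change of the neighbours was 0.06, near the 0.08 over all tested genes. Casd1, between Calcr and Sgce, was at 39.5 and 38.8 RPKM in EED-cKO, against 26.6 and 23.4 RPKM in wt (log2 0.63 ± 0.078, limma adjusted p = 0.000887). Cobl, beside Grb10, was at 18.5 and 18.6 RPKM in EED-cKO, against 11.5 and 7.5 RPKM in wt (log2 0.92 ± 0.172, limma adjusted p = 0.00467). Mrpl23, the ribosomal protein gene next to H19, was at 77 and 79.7 RPKM in EED-cKO, against 103.1 and 114.2 RPKM in wt (log2 −0.47 ± 0.082, limma adjusted p = 0.00367). Casd1 and Cobl thus rose and Mrpl23 fell, each without overlap. In the regional comparison 5 of the 15 were higher in spinal cord and 6 lower, where 21.8% of all tested genes were higher and 23.9% lower.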

How the data were processed

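The authors deposited 1 table of RPKM values for the 8 libraries, without read counts. Per the labels, reads were unstranded, single-end and 50 bases long, from a HiSeq2500, with a target of 50M per library. The genome builds mm9 and GRCm38 are named per the submitters' processing notes, and the aligner and counter are not given in the sources used here. Depth is unknown, so no counting interval was computed.

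The E15.5 columns were matched to the names in alphabetical order (case and hyphens ignored), which moved 23016 of 36333 names. Where a symbol occurred more than once (16 symbols), its most abundant row was used. Genes with 1 RPKM or more in 2 or more of 8 libraries (17022) entered a two-sided test as log2(RPKM + 1) by limma 3.58.1 (R 4.3.3), using moderated variances with a trend. The model had a mean for each of the 4 groups, which leaves 4 residual degrees of freedom. The test was checked on simulated data. Calls needed a p below 0.05 after Benjamini-Hochberg adjustment across the 17022 genes.

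The members, the other gene lists and the tests were chosen with earlier results of these data known. The text names all 35 members, Eed, fixed neighbours of members, all listed regulators, and up to 4 called genes of each other list with the largest change at 2 RPKM or more. Tbr1 was added from the cell type markers as a check of the tissue. Pomc, Hbb-bt, Hbb-bs and Zim3 were named after their values were seen. Gene coordinates and exon overlaps come from GENCODE M21 (GRCm38) and promoter windows from RefSeq (GRCm38.p6). Alternatives were a pseudocount of 0.1, no filter, quantile normalization, median ratio scaling, the 4 compared libraries alone, a replicate block, each library left out, a threshold of 0.01, the deposited row order and same-row genes only. Scripts ran in Python 3.11.15 (pandas 2.3.3, numpy 2.4.6), and matplotlib 3.10.9 drew the plots.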

Additional observations from a re-analysis of the deposited data

How the results depend on the processing

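The count of imprinted genes that rose in EED-cKO forebrain was 26, and 18 to 26 under the alternatives other than leaving out a library. The lowest, 18, came from the 22 tested members with the same row in both orders, and 21 rose with only the 4 libraries compared. There Ndn (adjusted p = 0.06), Peg12 (0.0718), Ppp1r9a (0.0751), Gnas (0.166), Inpp5f (0.0952), Kcnq1 (0.0869), Snrpn (0.0525) and Impact (0.0507) lost their calls and Snurf gained one (0.0444). Inpp5f also lost its call with no filter (0.0942) and under median ratio scaling (0.0606). With 1 library left out it was 22 to 27. The count that fell was 2, and was 0 with only the 4 libraries compared, 1 at an adjusted p under 0.01, 1 in the deposited row order and 0 among same-row genes, since Ndn and Peg12 are both moved. With 1 library left out it was 0 to 3. Only the 4 libraries compared gave 3393 higher and 1384 lower calls over all genes, against 5149 and 2838. The share of higher calls was 64.5%, 45.1% after quantile normalization (3540 higher, 4314 lower) and 52.5% after median ratio scaling (4392 higher, 3976 lower). Between the tissues, 9 members were higher in spinal cord and 12 lower. The higher count was 5 at an adjusted p under 0.01 and 5 to 9 with 1 library left out. The lower count was 6 among same-row genes, which hold fewer members, and 10 to 13 with 1 library left out.

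Directions turned for 6 genes, of which Kcnq1 in EED-cKO was called (0.28) and the others were not. In EED-cKO against wt they were Ube3a without wt E15.5 replicate 2 (−0.078, with a highest value of 0.376 without another library), Kcnq1ot1 without the same library (0.136, lowest −0.289), and Kcnq1 after quantile normalization (−0.043). In spinal cord against forebrain they were Zim1 after quantile normalization (−0.009) and without forebrain replicate 2 (−0.003), Sgce without forebrain replicate 1 (−0.007, highest 0.067), and Trappc9 without forebrain replicate 2 (−0.013, highest 0.101). Where no construction is given, the cause was not tested.

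The replicate block gave 26 higher and 2 lower members in EED-cKO, and 8 higher and 12 lower in spinal cord. H19 (adjusted p = 0.0505) and Gnas (0.0775) lost their spinal cord calls under the block, and Inpp5f (0.0123) gained one. The replicate numbers share no stated source. Deviations of same-numbered libraries correlated at −0.124 between EED-cKO and wt forebrain and at 0.211 between spinal cord and forebrain. A block with crossed numbers, chosen after seeing the data, gave 25 higher and 2 lower in EED-cKO.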

Other observations

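Genes listed as regulators of imprinted methylation were measured in the same libraries. Of 16 listed, 14 were tested in EED-cKO against wt forebrain, and 2 rose, 4 fell and 8 were not called, where 30.2% of all tested genes rose, 16.7% fell and 46.9% were called, so the share called was near the background. Uhrf1, which brings the maintenance methyltransferase to replicating DNA, was at 13.4 and 14.5 RPKM in EED-cKO, against 27 and 25.9 RPKM in wt (log2 −0.88 ± 0.078, limma adjusted p = 0.000257). Trim28, the corepressor of zinc finger proteins at imprinted regions, was at 195.8 and 183.3 RPKM in EED-cKO, against 246 and 262.9 RPKM in wt (log2 −0.42 ± 0.067, limma adjusted p = 0.00233). Both fell, as did Zfp57 (−0.29) and Ehmt1 (−0.23), which lost their calls without at least 1 library (limma adjusted p up to 0.056 and 0.104). Dnmt3a (log2 0.63) and Zfp568 (0.56) rose, and both lost their call without at least 1 library (limma adjusted p up to 0.0681 and 0.0852). Between the tissues 7 of the 14 were lower in spinal cord, Zfp57 was higher and 6 were not called, against 23.9% lower and 21.8% higher over all tested genes. Uhrf1 was at 10.8 and 10.2 RPKM in spinal cord, against 65.9 and 73.5 RPKM in forebrain (log2 −2.62 ± 0.078, limma adjusted p = 1.5e-06). Dnmt1, the maintenance methyltransferase gene, was at 36.5 and 37.7 RPKM in spinal cord, against 66.9 and 71.1 RPKM in forebrain (log2 −0.88 ± 0.076, limma adjusted p = 0.000133). Smchd1 (−0.75), Trim28 (−0.65), Ctcf (−0.46), Ehmt1 (−0.30) and Ehmt2 (−0.21) were lower too. Of these, Ctcf, Ehmt1 and Ehmt2 lost their calls without at least 1 library (limma adjusted p up to 0.0726, 0.0533 and 0.129), as did Zfp57 (0.0628). Zfp445, Arid4a, Arid4b and Kdm1b were called in neither comparison, and Dnmt3l and Dppa3, at 0.1 RPKM or less in every library, were not tested. Neural progenitor markers were lower for 6 of 8 in the same libraries, with a slightly higher sum, and their part in these values was not tested.

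Small RNA genes within imprinted transcripts were hardly seen. Of 20 listed, 18 were in the table, 3 were tested and none was called in either comparison. In all 4 E15.5 libraries 16 were at 0, and a tested gene among them could not be called there. The listed genes summed to 1.4 and 3.7 RPKM in EED-cKO and 3.2 and 3 RPKM in wt E15.5 forebrain. At E13.5 they summed to 12.9 and 14.4 RPKM in spinal cord and 15.7 and 13.9 RPKM in forebrain. A library of long RNA does not capture mature microRNAs, so these values say nothing of them.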
